A study of Mus musculus with 9 samples.

Results

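The stretch of mouse chromosome 15 between 30 and 40 Mb was examined because peaks of the CTCF map that were far below control in *MommeD43-GFP* cells lay close together there. Its members were all merged CTCF peaks overlapping chr15:30000000-40000000 (GRCm38), 971 of 225769 peaks in all and of 8947 on the chromosome. The stretch was picked from the difference between the MommeD43-GFP and the control value, so every result on that difference is a description. Values were given as 1 pooled number per genotype, with no single libraries behind it, so no difference could be set against the spread between replicates and no test was made.

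CTCF was mapped by ChIP-seq in primary NSCs, the neural stem cells of the cortex, grown from female C57BL/6 embryos at E14.5. There were 9 libraries. Of these, 3 came from *Smchd1* MommeD43-GFP/MommeD43-GFP cells, in which the GFP-fused *Smchd1* allele also carries a point mutation first found in a mutagenesis screen and remade here by gene editing. A further 2 came from *Smchd1* del/del cells, floxed cells deleted in culture by a Cre retrovirus and kept under drug selection. These cells lack the GFP tag, so deletion, virus with selection and lack of the tag cannot be told apart in them. The remaining ChIP libraries were 3 from *Smchd1* GFP/GFP control cells, which carry the tagged allele without the mutation, and 1 library was input, not analysed here. The edited line was crossed back to *Smchd1* GFP/GFP mice, so both tagged groups share the fusion allele.

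CTCF is a zinc finger protein that binds a long, conserved motif and holds the bases of chromatin loops and domain borders. Many of its sites in the mouse lie inside repeats, since some families of short interspersed elements carry the motif and have spread it through the genome. SMCHD1 is a non-canonical SMC protein known for keeping the inactive X chromosome and several autosomal gene clusters silent, and in cells without it CTCF is known to gain sites on the inactive X.

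The sequences below come from a minority of the lowered and raised peaks of the stretch and do not stand for all of them. A peak is called lowered or raised in a mutant where its log2 value is at least 1 below or above the control value, a 2-fold difference. Each 40-base window holds a match to the relaxed CTCF motif, in capitals, with 14 bases on either side, read from the RefSeq sequence of GRCm38.p6. The relaxed motif stands for the letters CCNNNAGAGGGC, CCNNNAGATGGC, CCNNNAGGGGGC and CCNNNAGGTGGC, searched on both strands. The first set gives the 9 matches in the 7 lowered MommeD43-GFP peaks that hold one, of 49 lowered peaks (14.3%). Most lowered peaks hold no match.
Gm49300 peak, first site (chr15:31397554-31397593, minus strand): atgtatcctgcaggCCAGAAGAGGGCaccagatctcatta
Gm49300 peak, other site (chr15:31397879-31397918, plus strand): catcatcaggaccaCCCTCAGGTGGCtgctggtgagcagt
Sema5a peak (chr15:32630291-32630330, minus strand): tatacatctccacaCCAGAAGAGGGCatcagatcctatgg
Matn2 peak (chr15:34401242-34401281, plus strand): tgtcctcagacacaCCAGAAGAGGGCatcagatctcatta
Erich5 peak (chr15:34469867-34469906, minus strand): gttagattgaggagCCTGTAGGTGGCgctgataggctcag
Rgs22 peak (chr15:36051972-36052011, plus strand): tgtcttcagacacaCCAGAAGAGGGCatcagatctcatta
Ankrd46 peak (chr15:36481637-36481676, minus strand): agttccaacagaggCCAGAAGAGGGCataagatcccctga
Gm9509 peak, core motif site (chr15:37172360-37172399, plus strand): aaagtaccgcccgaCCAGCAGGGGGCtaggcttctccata
Gm9509 peak, other site (chr15:37172715-37172754, minus strand): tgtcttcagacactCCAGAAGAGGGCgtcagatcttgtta

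Of these 9 matches, 6 have the same 12 letters, CCAGAAGAGGGC, and all 6 lie in soft-masked sequence, the lower-case letters by which the reference marks repeats. The Matn2 and Rgs22 windows share most of their flanks as well. The same letters occurred in 16713 of 225769 peaks (7.4%), where 99.7% of their sites were soft-masked. These letters were picked as the commonest in the lowered peaks of the stretch, so their share there is in part set by that choice. They occurred in 6 of 49 lowered peaks (12.2%), against 4.77% of the other peaks of the stretch and 3.84% of all peaks of the same lengths. Among lowered MommeD43-GFP peaks of the whole map, 20 of 1622 (1.23%) held them. Of the 50 peaks of the stretch with these letters, 6 (12%) were lowered in MommeD43-GFP cells, and the median difference of the 50 was 0.01. A relaxed match of any letters was present in 7 lowered peaks (14.3%), against 14.2% of the peaks of the stretch neither lowered nor raised, 17% of all peaks and 8.6% of all peaks of the same lengths. Lowered peaks had a median length of 600 bases, against 750 for all peaks. The stricter core motif of 12 letters, which is part of the relaxed motif, was present in 1 of them, the *Gm9509* peak (2.04%), against 1.11% of all peaks of the same lengths and 3.79% of all peaks.

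The raised peaks are shown for comparison by the 3 that hold the core motif.
Gm5212 peak (chr15:30029427-30029466, plus strand): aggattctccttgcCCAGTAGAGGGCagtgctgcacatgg
Gm41289 peak (chr15:32766457-32766496, minus strand): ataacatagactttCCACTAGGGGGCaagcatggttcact
Rims2 peak (chr15:39361268-39361307, plus strand): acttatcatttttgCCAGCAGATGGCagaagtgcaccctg

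Of the 32 raised MommeD43-GFP peaks, 3 (9.38%) held the core motif, none of them in soft-masked sequence, where 3.79% of all peaks held it. The *Rims2* peak above had a value of -0.80 in MommeD43-GFP, 0.32 in *Smchd1* del/del and -2.34 in control cells. The *Gm41289* peak had -1.41 in MommeD43-GFP, -0.20 in *Smchd1* del/del and -2.58 in control cells. In the *Gm5212* peak the values were -0.89, 0.29 and -2.44 in the same order of genotypes. All 3 peaks were weakest in control cells and strongest in *Smchd1* del/del cells. That control stands below MommeD43-GFP is fixed by the choice of raised peaks.

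The last set gives the 2 intronic peaks whose value was read as no read in any MommeD43-GFP library, each 300 bases long and complete. Capitals here mark soft-masked bases.
Sema5a peak with no read (chr15:32286601-32286900, plus strand): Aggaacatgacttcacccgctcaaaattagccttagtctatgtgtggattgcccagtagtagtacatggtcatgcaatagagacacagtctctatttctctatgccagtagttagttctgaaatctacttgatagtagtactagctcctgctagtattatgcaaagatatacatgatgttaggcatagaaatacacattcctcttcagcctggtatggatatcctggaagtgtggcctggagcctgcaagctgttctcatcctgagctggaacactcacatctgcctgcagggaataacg
Cpq peak with no read (chr15:33221551-33221850, plus strand): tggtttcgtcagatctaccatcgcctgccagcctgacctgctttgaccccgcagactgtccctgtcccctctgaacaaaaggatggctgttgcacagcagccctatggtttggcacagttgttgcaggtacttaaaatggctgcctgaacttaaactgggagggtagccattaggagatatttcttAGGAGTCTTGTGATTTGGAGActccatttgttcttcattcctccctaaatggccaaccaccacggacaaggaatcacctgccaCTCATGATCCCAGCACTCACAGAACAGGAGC

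Neither holds the relaxed motif. Soft-masked bases made up 0.333% of the *Sema5a* peak and 17.3% of the *Cpq* peak, so neither is mainly repeat. The intergenic peaks near *Tspyl5* and *Gm49088*, also read as holding no read but not printed, were 60.7% and 98.3% soft-masked.

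Values are the authors' means over libraries of the log2 of the reads in a peak, each scaled to 1 M (1000000) reads in a library. They were not divided by peak length, so values are compared between genotypes at 1 peak and not between peaks. The smallest steps between values fit whole read counts with a geometric mean library of 49.2 M reads in MommeD43-GFP, 50 M in *Smchd1* del/del and 41.7 M in control cells. A peak of the stretch at the median held 31.6 reads per library in MommeD43-GFP, 34.3 in *Smchd1* del/del and 29.2 in control cells. The counting standard error of such a value is 0.15, 0.17 and 0.15 on the log2 scale, in that order. These errors, and the errors and intervals given with single peaks, cover the counting of reads only.

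In MommeD43-GFP cells the stretch had more lowered peaks than the map at large. Against control, 49 of 971 peaks (5.05%) were lowered, where 0.718% of all peaks were. Another 32 peaks (3.3%) were raised, with a background of 2.08%. The median value was -0.64 in MommeD43-GFP cells and -0.51 in control cells, and the median difference was -0.10, against 0.01 over all peaks. The differences also spread further, with an SD over peaks of 0.70 in the stretch and 0.43 over all peaks. Among the 490 better-covered peaks, those whose highest value of the 3 was at or above the median over all peaks, 19 (3.88%) were lowered with a background of 0.184%, and 11 (2.24%) were raised with a background of 0.733%. A lowered peak passes this filter through its control or *Smchd1* del/del value. The filter therefore does not remove peaks with few reads in MommeD43-GFP cells. At the threshold itself, the peaks just inside lay in an intron of *Gm41290* (difference -1.01) and near *Gm9501* (-1.02). The peaks just outside lay in an intron of *Stk3* and near *Grhl2* (-0.97 each).

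In *Smchd1* del/del cells the share of lowered peaks was near that of the whole map. Against the same control libraries, 19 of 971 peaks (1.96%) were lowered, where 1.85% of all peaks were. In the other direction 44 peaks (4.53%) were raised, with a background of 3.31%. Better-covered peaks gave 5 lowered (1.02%), with a background of 0.748%, and 13 raised (2.65%), with a background of 2.2%. The median value was -0.54 in *Smchd1* del/del cells and -0.51 in control cells, and the median difference was 0.01 in the stretch and -0.04 over all peaks. MommeD43-GFP cells set directly against *Smchd1* del/del cells had 62 peaks (6.39%) at least 2-fold lower, with a background of 1.08%, and 12 (1.24%) at least 2-fold higher, with a background of 1.26%. In better-covered peaks these were 28 (5.71%), with a background of 0.5%, and 5 (1.02%), with a background of 0.264%. The first and the last of these comparisons share the MommeD43-GFP libraries, and the first 2 share the control libraries, so they are not independent of each other. Of the 49 lowered MommeD43-GFP peaks, 6 were also lowered in *Smchd1* del/del cells and 2 were raised there. At 35 of the 49, MommeD43-GFP stood at least 2-fold below *Smchd1* del/del. Of the 32 raised MommeD43-GFP peaks, 16 were also raised in *Smchd1* del/del cells. The shared control favours such overlap, which was not tested.

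**Figure D1:**
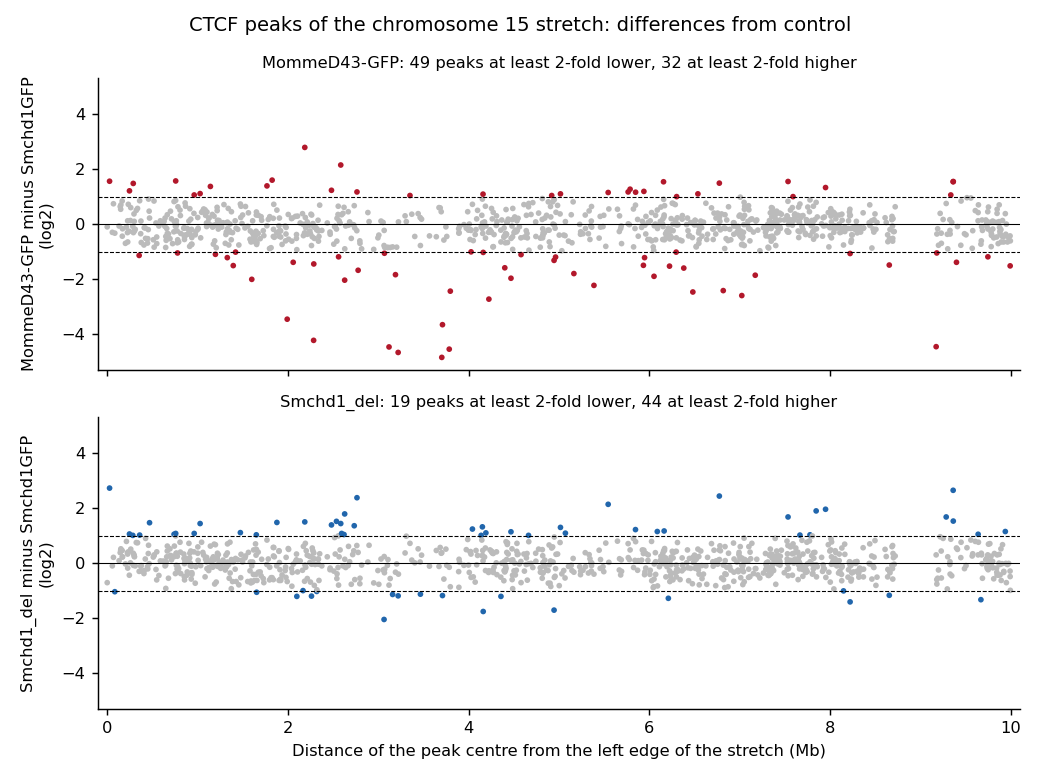
Difference from the control value (log2) of each of the 971 peaks by its distance from the left edge of the stretch (Mb), for MommeD43-GFP (above) and Smchd1_del cells (below). Dashed lines mark 2-fold and coloured points lie past them: 49 lowered and 32 raised in MommeD43-GFP, 19 and 44 in Smchd1_del. The points furthest down, some of them peaks taken to hold no read, lie in the upper panel only.

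Along the stretch, lowered MommeD43-GFP peaks were densest between 33 and 34 Mb. That 1-Mb bin held few peaks, 45 in all, of which 8 (17.8%) were lowered, with a median difference of -0.33 and an SD of 1.47. In *Smchd1* del/del cells 5 of the 45 peaks (11.1%) were lowered. The neighbouring bins from 31 to 37 Mb had between 4.92% and 7.14% of peaks lowered in MommeD43-GFP cells. The lowest shares were 1.79% at 30 to 31 Mb, 1.32% at 37 to 38 Mb and 2.47% at 38 to 39 Mb, and the last bin had 6.25%. The bin with the most peaks, 151 at 37 to 38 Mb, was the one with the lowest share. Lowered peaks were scattered among others that were not: the median gap between neighbouring lowered peaks was 148 kb, the gaps ran from 1.35 to 1050 kb, and only 4 neighbouring pairs had no other peak between them.

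With lowered peaks at most 200 kb apart joined, 6 runs held at least 3 of them. The run with the largest share of lowered peaks spanned 95.1 kb (chr15:33704101-33799200) beyond *Tspyl5*, and 4 of its 7 peaks were lowered, with a median difference of -2.44 over the 7. The run before it, at chr15:33069751-33221850, lay in *Gm32764* and *Cpq*, which encodes a secreted carboxypeptidase, and held 4 lowered peaks of 10. In the 4 longer runs lowered peaks were a minority. They were 5 of 48 peaks from *Gm26416* to *Fam173b*, 3 of 21 from *Sema5a* to *Gm32618*, 6 of 69 from *Gm41290* to *Nipal2* and 7 of 73 from *Cox6c* to *Ankrd46*, with medians between -0.22 and -0.02 over all peaks of each run.

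The stretch is not an island. The 10 Mb to its left held 643 further peaks, of which 9 (1.4%) were lowered in MommeD43-GFP cells. The 10 Mb to its right held 488, of which 26 (5.33%) were lowered and 23 raised. The right edge of the stretch therefore does not mark where lowering ended: 1-Mb bins up to 51 Mb reached shares of 11.1%. Over the remaining 7976 peaks of the chromosome, both flanks included, 83 (1.04%) were lowered. Among 270 windows of 10 Mb with at least 100 peaks the stretch ranked 4 by the share lowered, after the 10 to 20 Mb window of chromosome 12 (7.13%), the right flank and the 20 to 30 Mb window of chromosome 12 (5.26%). The median window had 0.598%.

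**Figure D2:**
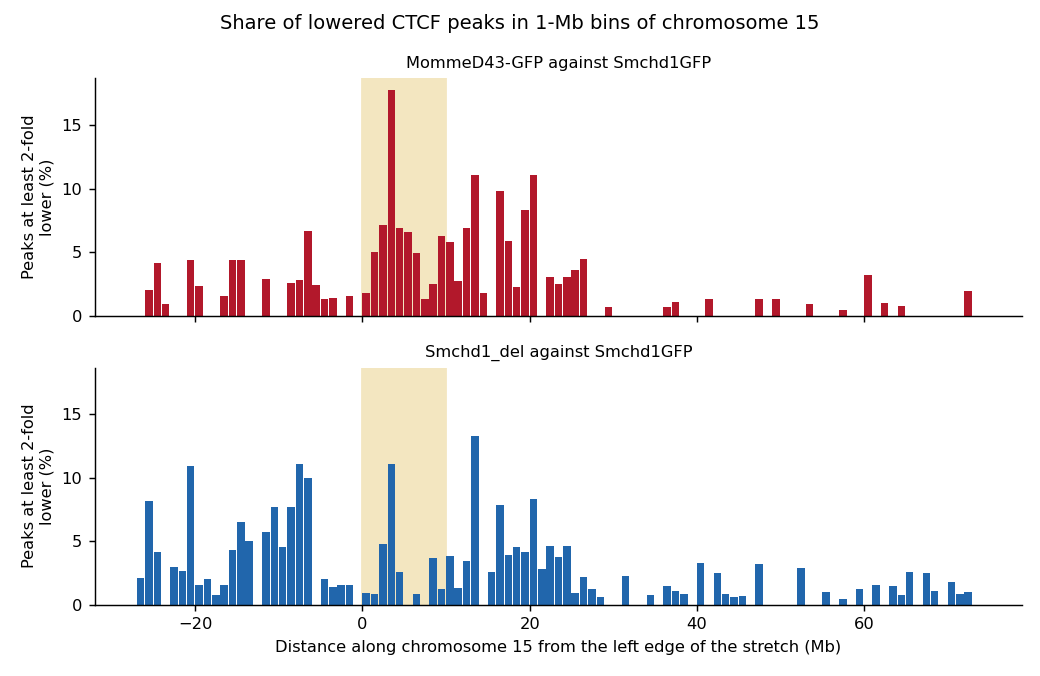
Percent of peaks at least 2-fold lower than control in 1-Mb bins with at least 20 peaks, by distance from the left edge of the stretch (shaded), for MommeD43-GFP (above) and Smchd1_del cells (below). In MommeD43-GFP the highest bar, 17.8%, lies inside the stretch and bars above 5% go on past its right edge. Left of the stretch 1 MommeD43-GFP bar (6.67%) and several Smchd1_del bars, the highest at 11.1%, also exceed 5%.

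Some peaks had almost no reads in MommeD43-GFP cells. This set was chosen after its values were seen: at most 2 reads per library in MommeD43-GFP and at least 10 per library in control cells. It held 8 peaks of the stretch, of 34 in the genome (0.0151% of all peaks). The same limits applied to *Smchd1* del/del cells gave 0 peaks in the stretch and 3 in the genome (0.00133%). Of the 34 peaks, 15 lay on chromosome 12, 12 on chromosome 15, 4 on chromosome 4, 2 on chromosome 7 and 1 on chromosome 13. All 4 others on chromosome 15 lay in the right flank.

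In 4 of the 8 peaks the value equals the lowest of the column, which was read as 0 reads in all 3 MommeD43-GFP libraries. A count of 0 allows up to 3 reads over the libraries, and the folds that follow are lower bounds from that limit. The first of them, in an intron of *Sema5a* (chr15:32286601-32286900), which encodes a transmembrane semaphorin of axon guidance, held 19.3 reads per *Smchd1* del/del library and 14.3 per control library, at least 16.9-fold lower than control. The *Cpq* intron peak (chr15:33221551-33221850) held 10.2 reads per *Smchd1* del/del library and 19.4 per control library, at least 22.9-fold lower. Both are the peaks printed above. The peak near *Tspyl5* (chr15:33704101-33704700), a gene of the nucleosome assembly protein family, held 34.3 reads per *Smchd1* del/del library and 21.9 per control library, at least 25.9-fold lower. The last, near *Gm49088* (chr15:33786751-33787050), held 19.3 and 17.9 reads in that order, at least 21.1-fold lower. *Smchd1* del/del and control cells thus both had reads at each of these peaks.

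The other 4 near-empty peaks had a few reads. The peak near *Gm9522* (chr15:39172651-39173400) had 3 reads in 1 MommeD43-GFP library and none in the others, against 75.3 reads over the control libraries, a ratio of 3.37% (exact 95% counting interval 0.681% to 10.2%). It held 36.9 reads per *Smchd1* del/del library. The second *Cpq* intron peak (chr15:33120451-33121050) held 1.53 reads per library in MommeD43-GFP, 19.8 in *Smchd1* del/del and 28.8 in control cells. The second peak near *Tspyl5* (chr15:33711751-33712350) held 2.00, 11.4 and 21.5 reads per library in the same order of genotypes, and the peak at chr15:31994251-31994550, with no gene start within 50 kb, held 2.00, 14.1 and 18.6. Of the 8 near-empty peaks, 6 were at least 50% soft-masked and none held the relaxed motif.

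Among the better-covered peaks, the 15 furthest below control in MommeD43-GFP cells included introns, promoters and intergenic sites. A peak counts as a promoter peak where it lies within 1 kb of a transcription start. The peak with the largest difference lay 12228 bases from the start of *Laptm4b*, a lysosomal membrane protein gene, with values of -2.80 in MommeD43-GFP, -0.36 in *Smchd1* del/del and -0.07 in control cells. Its difference from control was -2.73 ± 0.34 (counting SE) in MommeD43-GFP cells and -0.28 ± 0.21 in *Smchd1* del/del cells. An intron peak of *Ankrd46* had -2.61 in MommeD43-GFP, 0.07 in *Smchd1* del/del and -0.14 in control cells. An intron peak of *Vps13b*, a gene for a lipid transfer protein of the Golgi, had -2.34, -0.51 and -0.11. An intron peak of the non-coding gene *Gm26766* had -2.79, -0.27 and -0.19, and an intergenic peak near *Gm49089* had -2.50, -0.92 and -0.06. At the *Laptm4b*, *Ankrd46*, *Vps13b* and *Gm26766* peaks the *Smchd1* del/del value stayed within 0.40 of control, and at *Gm49089* it was 0.86 below control.

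Of these 15 peaks, 5 were promoter peaks. The promoter peak of *Fam173b*, which encodes a mitochondrial lysine methyltransferase, and of *Cct5*, a subunit of the TRiC chaperonin, is a single peak (chr15:31602001-31603050) within 1 kb of the starts of both genes, which run in opposite directions, and it overlaps *Fam173b* coding sequence. Its value was -1.21 in MommeD43-GFP, 0.70 in *Smchd1* del/del and 0.80 in control cells, a difference from control of -2.01 ± 0.21 in MommeD43-GFP cells and -0.10 ± 0.15 in *Smchd1* del/del cells. The *Gm9509* promoter peak (chr15:37170901-37172850), the lowered peak with the core motif, had -0.47 in MommeD43-GFP, 1.20 in *Smchd1* del/del and 1.39 in control cells. The *Gm32618* promoter peak (chr15:32778301-32779650) had -0.70, 1.36 and 0.98 in the same order, the *Gm34093* promoter peak -1.50, -0.11 and 0.10, and the *Gm49253* promoter peak -1.73, -0.71 and -0.22. The 4 genes named by *Gm* numbers carry no function in the annotation used.

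A pair of intron peaks stood lower in MommeD43-GFP and higher in *Smchd1* del/del cells than in control cells. At *Erich5* (chr15:34469101-34470300) the value was -1.63 in MommeD43-GFP, 1.49 in *Smchd1* del/del and 0.34 in control cells, a difference from control of -1.97 ± 0.24 in MommeD43-GFP cells and 1.14 ± 0.14 in *Smchd1* del/del cells. At *Sema5a* (chr15:32629801-32630550) the value was -3.79, 0.04 and -1.75 in the same order, a difference of -2.04 ± 0.50 in MommeD43-GFP cells and 1.79 ± 0.28 in *Smchd1* del/del cells. Both peaks hold a relaxed motif match, printed above. The difference of MommeD43-GFP from *Smchd1* del/del was -3.12 ± 0.23 at *Erich5* and -3.83 ± 0.46 at *Sema5a*. The *Sema5a* peak counts as better covered only through its *Smchd1* del/del value, since it held 3.56 reads per MommeD43-GFP library and 12.4 per control library.

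The remaining 3 of the 15 were an intergenic peak and a pair of intron peaks. The peak near *Gm49300* (chr15:31397101-31398300), with 2 motif matches, had -0.49 in MommeD43-GFP, 1.06 in *Smchd1* del/del and 1.02 in control cells. The intron peak of *Matn2*, which encodes an extracellular matrix protein, had -1.79, -0.52 and -0.20, and that of *Spag1*, a gene needed to assemble the dynein arms of motile cilia, had -1.11, 0.14 and 0.42. In all 15 peaks MommeD43-GFP had the lowest value of the 3 genotypes, as the choice of the peaks by their distance below control makes likely. Each of the 15 counts as better covered only through control or *Smchd1* del/del cells. Their MommeD43-GFP values all lay below the median level of -0.28.

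**Figure D3:**
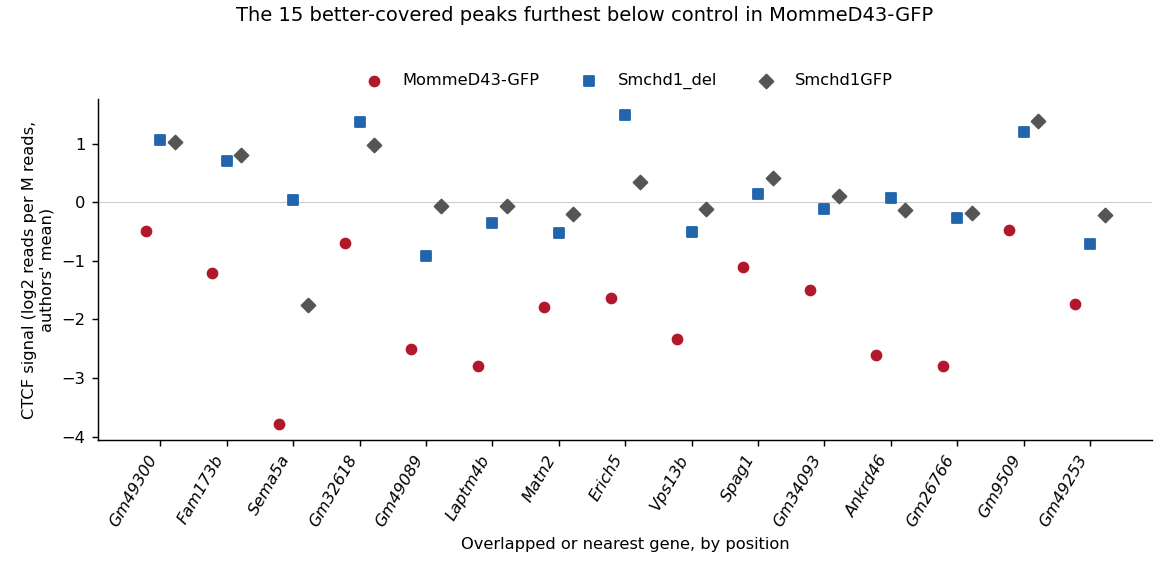
Pooled CTCF values (log2 reads per M, the authors' mean) of the 15 better-covered peaks furthest below control, in order of position, with MommeD43-GFP, Smchd1_del and Smchd1GFP control side by side. The MommeD43-GFP point is the lowest at each peak, and at *Sema5a* and *Erich5* the Smchd1_del point lies above control.

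The 32 raised MommeD43-GFP peaks had a median value of -0.81 in MommeD43-GFP, -0.95 in *Smchd1* del/del and -2.11 in control cells, which is 9.69 reads per control library. A low control value is in part what the choice of raised peaks selects. The best covered of them lay in coding sequence of *Snx31*, a sorting nexin gene, with 3.02 in MommeD43-GFP, 2.42 in *Smchd1* del/del and 1.92 in control cells. An intergenic peak with no gene start within 50 kb (chr15:31826851-31828650) had 2.42, 0.29 and 0.82, and a peak in coding sequence of *Fbxo43*, whose product holds oocytes in meiotic arrest, had 1.45, -0.12 and -0.09. At these last peaks MommeD43-GFP stood above control by 1.60 ± 0.11 and 1.54 ± 0.15, while *Smchd1* del/del stood at -0.53 ± 0.16 and -0.02 ± 0.20 from control.

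In *Rims2*, the gene of a presynaptic active zone protein, an intron peak (chr15:39361651-39363150) had values of 1.13 in MommeD43-GFP, 1.10 in *Smchd1* del/del and -0.42 in control cells. It stood above control by 1.55 ± 0.17 in MommeD43-GFP cells and by 1.53 ± 0.18 in *Smchd1* del/del cells. An intron peak of *Ctnnd2*, which encodes delta-catenin of neuronal junctions, had 0.18, 0.03 and -1.03 in the same order. In these peaks both mutants stood above the shared control.

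*Smchd1* del/del cells had their own lowered and raised peaks. The better-covered peak furthest below control lay at a *Spag1* promoter (chr15:36210001-36211200), with -0.12 in *Smchd1* del/del, 1.01 in MommeD43-GFP and 1.16 in control cells, a difference of -1.28 ± 0.17 between *Smchd1* del/del and control. Other such peaks lay at the promoter of *9430069I07Rik* (-1.21 ± 0.28) and in introns of *Cpq* (-1.14 ± 0.27) and *Sema5a* (-1.03 ± 0.21). Among better-covered peaks, furthest above control were the *Gm5212*, *Rims2* and *Gm41289* peaks printed above for their core motif, by 2.73 ± 0.33, 2.65 ± 0.32 and 2.38 ± 0.35. These 3 count as better covered only through their *Smchd1* del/del values, and held between 6.95 and 8.24 reads per control library. An intron peak of *Vps13b* (chr15:35544451-35545500) followed at 2.14 ± 0.21, with 1.03 in *Smchd1* del/del, 0.04 in MommeD43-GFP and -1.11 in control cells.

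The 5 peaks of the stretch with the highest values lay within 0.31 of control in both mutants. They were long, 2700 to 5550 bases against a median of 750 in the stretch. Values were not divided by length, so these peaks are not shown to be the strongest sites. At *Gm8705* the value was 3.74 in MommeD43-GFP, 3.88 in *Smchd1* del/del and 3.89 in control cells, and at the *Sema5a* promoter it was 3.25, 3.53 and 3.51. Near *Gm22208* it was 2.89 in MommeD43-GFP, 3.43 in *Smchd1* del/del and 3.12 in control cells, and MommeD43-GFP differed from *Smchd1* del/del by -0.54 ± 0.06. The others lay near *Gm49314* and *Osr2*, a transcription factor gene of palate and limb. MommeD43-GFP differed from control by between -0.25 and -0.08 at the 5 peaks, and *Smchd1* del/del by between -0.13 and 0.31.

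Lowered peaks of the stretch were richer in repeats than the rest. Their median soft-masked share was 37.7%, against 14.2% in the peaks of the stretch that were neither lowered nor raised and 16.2% over all peaks. At least 50% of the bases were masked in 20 of 49 lowered peaks (40.8%), against 9.78% of the peaks that were neither and 14.8% of all peaks. Seen the other way, 20 of the 109 such peaks of the stretch (18.3%) were lowered in MommeD43-GFP cells, where 1.5% of all such peaks were. Among the 862 peaks of the stretch with less masking, 29 (3.36%) were lowered, where 0.583% of all peaks with less masking were. The excess over the genome was thus present in both classes. Lowered peaks on chromosomes other than 12 and 15 were at least 50% masked in 29.8% of cases.

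**Figure D4:**
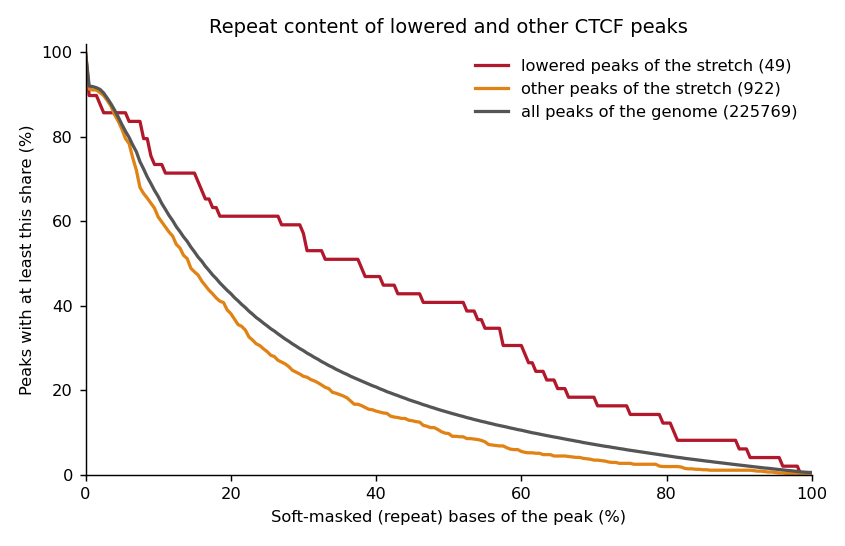
Percent of peaks (vertical axis) whose share of soft-masked bases is at least the value on the horizontal axis (%), for the 49 lowered MommeD43-GFP peaks of the stretch, its 922 other peaks and all 225769 peaks. At a share of 50% the curve of the lowered peaks stands at 40.8% and that of all peaks at 14.8%.

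GC content and position relative to genes differed less. Median GC content was 47.8% in lowered peaks, 47.6% in peaks neither lowered nor raised and 47.8% over all peaks. Of the 49 lowered peaks, 8 (16.3%) were promoter peaks, 26 (53.1%) lay in gene bodies and 15 (30.6%) between genes, against 12.9%, 46.6% and 40.5% over all peaks. Lowered peaks outside chromosomes 12 and 15 had 7.08% at promoters and 2.54% with a relaxed motif. Those peaks were shorter, with a median of 450 bases against 600 in the lowered peaks of the stretch. Their shares were not matched for length.

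The annotation places 192 genes in the stretch, 55 of them protein-coding, and 44 protein-coding genes were sorted into groups by function. At least 1 peak lay at the promoter or in the body of 36 of the 44. These genes held 512 peaks, of which 17 (3.32%) were lowered and 21 (4.1%) raised in MommeD43-GFP cells, with a median difference of -0.09. The shares were 5.05% and 3.3% over the stretch and 0.718% and 2.08% over all peaks. In *Smchd1* del/del cells 7 (1.37%) were lowered and 31 (6.05%) raised, with a median of 0.05, where 1.85% and 3.31% of all peaks were. Some protein-coding genes are not in the list, among them *Cpq*, with 3 lowered MommeD43-GFP peaks of 19, and *Sdc2*, with 0 of 4. Over genes of any kind, 26 of 540 gene-body peaks of the stretch (4.81%) and 8 of 111 promoter peaks (7.21%) were lowered. The share in the listed genes therefore does not stand for all genes of the stretch. No promoter or gene-body peak was listed for *Rpl30*, *Polr2k*, *Dcaf13*, *Slc25a32*, *Fzd6*, *Cthrc1*, *Baalc* and *Osr2*.

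Neuronal genes for adhesion, guidance and the synapse held 253 of these peaks. In MommeD43-GFP cells 7 (2.77%) were lowered and 11 (4.35%) raised, with a median difference of -0.07. Over all peaks these shares were 0.718% and 2.08%, and over the stretch 5.05% and 3.3%. In *Smchd1* del/del cells 3 (1.19%) were lowered and 20 (7.91%) raised, with a median of 0.14. The shares there were 1.85% and 3.31% over all peaks and 1.96% and 4.53% over the stretch. *Ctnnd2* alone held 104 peaks, 2 lowered and 4 raised in MommeD43-GFP cells. *Sema5a* held 45, 4 lowered and 2 raised. *Ncald*, which encodes a neuronal calcium sensor, held 70, of which 0 were lowered and 2 raised.

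The other groups held few peaks, so their MommeD43-GFP counts are given as such and cannot be read against these shares. Transcription factor genes (*Klf10*, *Grhl2* and *Zfp706*) held 29 peaks, with 0 lowered and 0 raised. Genes of growth and of Wnt or Hippo signalling held 40 peaks, with 3 lowered, all in *Stk3*, a Hippo pathway kinase gene, and 2 raised. Genes of membrane trafficking and matrix held 89, with 3 lowered and 5 raised. Genes of mitochondria and metabolism held 36, with 2 lowered and 1 raised. Germ cell and cilia genes held 20, with 2 lowered, in *Spag1* and *Odf1*, and 1 raised, and genes of translation, RNA and protein folding held 14, with 1 lowered and 1 raised.

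Of all 111 promoter peaks of the stretch, 8 (7.21%) were lowered in MommeD43-GFP cells, where 0.432% of all promoter peaks were. Taking the tallest promoter peak of each listed gene, 28 different peaks, 2 (7.14%) were lowered and 1 (3.57%) raised in MommeD43-GFP cells, with a median difference of -0.18, and the median in *Smchd1* del/del cells was 0.00. The lowered ones were the shared *Cct5* and *Fam173b* peak described above and that of *Cox6c*, a subunit of cytochrome c oxidase, with -1.56 in MommeD43-GFP, 0.29 in *Smchd1* del/del and -0.06 in control cells (-1.50 ± 0.24 from control in the MommeD43-GFP and 0.35 ± 0.19 in the *Smchd1* del/del cells). The raised one belonged to *Rrm2b*, a ribonucleotide reductase subunit gene induced by p53, with -1.15 in MommeD43-GFP, -0.52 in *Smchd1* del/del and -2.48 in control cells. In *Smchd1* del/del cells the *Fbxo43* promoter peak was raised as well, with -0.01 in MommeD43-GFP, 0.83 in *Smchd1* del/del and -0.34 in control cells. *Zfp706* came close to 2-fold, with 0.81 in MommeD43-GFP, 0.43 in *Smchd1* del/del and -0.17 in control cells. At some well-covered promoters the 3 genotypes lay close together. The values were 1.89 in MommeD43-GFP, 1.99 in *Smchd1* del/del and 2.00 in control cells at *Dap*. In the same order they were 2.94, 3.00 and 2.98 at *Matn2* and 2.73, 2.77 and 2.79 at *Ncald*. Other well-covered promoters differed by more than the counting error. MommeD43-GFP differed from *Smchd1* del/del by -0.66 ± 0.09 at *Mtdh* and by -0.54 ± 0.08 at the tallest *Spag1* promoter peak. At *Azin1* that difference was 0.57 ± 0.12. At *Dpys* MommeD43-GFP differed from control by -0.71 ± 0.12.

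**Figure D5:**
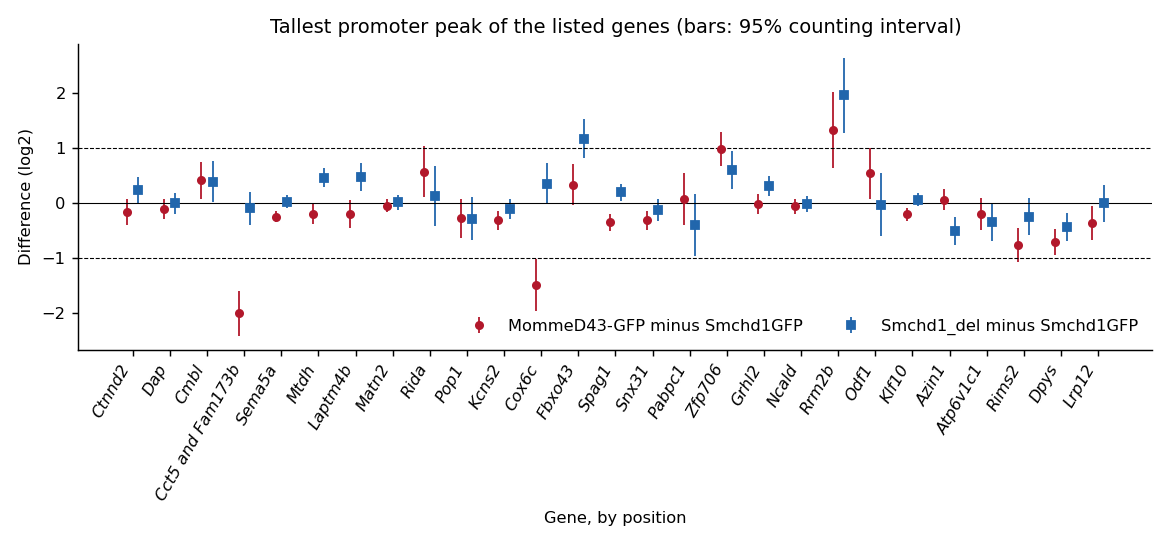
Difference from control (log2) of the tallest promoter peak of the gene groups described above, in order of position, for MommeD43-GFP (left of each pair) and Smchd1_del (right), with 95% counting intervals and dashed lines at 2-fold. The shared *Cct5* and *Fam173b* peak (-2.01) and the *Cox6c* peak (-1.50) lie below the lower line in MommeD43-GFP only, and the *Rrm2b* peak lies above the upper line in both mutants.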

How the data were processed

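Per the labels, the authors trimmed 75-bp single-end reads with Trim Galore 0.4.4 and cutadapt 2.9, checked them with FastQC 0.11.8, mapped them with Bowtie2 2.3.4.1 and handled them with SAMtools 1.7 and R 4.2.0. Peaks were called in SeqMonk per genotype on reads extended by 180 bp and merged. The deposited log2 values count the reads in a merged peak per M reads (1 M is 1000000) of the library, and the authors took their mean within each genotype. Duplicate removal is not stated. The authors' own differential test used windows and single libraries, which the pooled columns do not allow.

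Here differences of log2 values were taken, with calls at 2-fold. Reads were decoded from the lowest steps, with 0 entered as 0.9. How the authors entered 0 is not stated. A run on simulated data used the same 0.9 and the same reading of the lowest value, so it could not test these assumptions. Counting errors follow from the decoded reads. The labels' build, GRCm38, matches the reference, and no peak ran past a chromosome end. Genes came from GENCODE M21. A peak takes the gene it overlaps, promoter first, or else the nearest start within 50 kb. Named peaks are, among better-covered ones, the 15 furthest below and 6 furthest above control in MommeD43-GFP, up to 6 each way in *Smchd1* del/del (5 were lower) and 4 each way between the mutants, plus the 5 highest, 2 on each side of the threshold, ends of runs and promoter peaks of listed genes. A group of the listed genes is not reported here. CTCF signal allows no marker check of the cell type. The members and gene lists were chosen with earlier results of these data known. Computation was in Python 3.11.15 with pandas 2.3.3, numpy 2.4.6, statsmodels 0.14.6 and scipy 1.17.1, and figures were drawn with matplotlib 3.10.9.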

Additional observations from a re-analysis of the deposited data

How the results depend on the processing

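The table gives 1 pooled value per genotype, so the limits of these results are the unknown spread between libraries, the counting error of weak peaks and the choice of the stretch from the data themselves. No paired analysis was possible because the columns carry no replicate numbers, and leaving out replicates was not run for the same reason. Of 125 summary values under other settings 82 kept their place and 43 moved. Most of them are counts or shares, which have no sign, so only medians were open to reversal. The MommeD43-GFP medians, against control and against *Smchd1* del/del, stayed negative under every setting applied to them. The *Smchd1* del/del median against control was 0.01 in the main setting and -0.02 in better-covered peaks, so its sign was not fixed. Counts below are peaks lower, then higher.

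For MommeD43-GFP against control (49 and 32), calls at 1.5-fold gave 155 and 105, with backgrounds of 5.84% and 8.64%, and at 4-fold 16 and 2, with 0.043% and 0.0802%. Better-covered peaks alone gave 19 and 11 (3.88% and 2.24%), with 0.184% and 0.733%. A pseudocount of 1 read per M, which exceeds the median signal, left 1 and 1, with 0.00177% and 0.00133%, and a median of -0.05. A pseudocount of 0.1 gave 16 higher peaks (1.65%), with 0.745%, and a lowess trend on level 21 (2.16%), with 0.99%. Leaving out peaks that are at least 50% soft-masked, a setting chosen after seeing the data, left 29 lower peaks (3.36%), with 0.583%. Leaving out the 8 near-empty peaks, also chosen after seeing the data, left 41 (4.26%), with 0.703%.

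For *Smchd1* del/del against control (19 and 44), the counts were 98 and 126 at 1.5-fold, 1 and 5 at 4-fold, 5 and 13 in better-covered peaks, 7 and 22 with a pseudocount of 0.1 and 0 and 1 with a pseudocount of 1. Centring each column moved the median to 0.07.

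For MommeD43-GFP against *Smchd1* del/del (62 and 12), they were 166 (17.1%) and 53 (5.46%) at 1.5-fold, with backgrounds of 6.13% and 7.93%. At 4-fold they were 15 and 1 (1.54% and 0.103%), with 0.0673% and 0.031%. Better-covered peaks gave 28 and 5 (5.71% and 1.02%), with 0.5% and 0.264%. A pseudocount of 0.1 gave 39 and 6 (4.02% and 0.618%), with 0.416% and 0.317%. A pseudocount of 1 gave 3 and 1, with 0.0177% and 0.00443%. The lowess trend left 6 higher peaks (0.618%), with 0.574%. The median was -0.13 with centring, -0.12 with quantile normalization, -0.14 with the lowess trend and -0.04 with a pseudocount of 1.

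Joining lowered peaks at 500 kb gave 3 runs of at least 3 with 47 lowered peaks, and at 100 kb such runs held 15, against 29 at 200 kb. The highest share of lowered peaks in a bin was 10.9% in 2-Mb bins. The core motif was in 1 lowered peak, against 7 for the relaxed form. Edges moved by 1 Mb and a limit of 3 kb on peak length were applied to the counts and medians only, and centring within GC bins also to the named differences. These settings kept every count within 1.5 times and gave between 42 and 55 lower MommeD43-GFP peaks. Of 240 values of the 40 named differences, 198 stayed within counting error, 42 moved and none changed sign, 40 of the 42 with the pseudocount of 1.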
